A study of Mus musculus with 9 samples.

Results

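This comparison asked how 4-hydroxytamoxifen (4OHT), the active metabolite of tamoxifen, changed gene expression in murine oviductal epithelium (MOE) cells in the absence of added estrogen. It set the 3 samples treated with 100 nM 4OHT against the 3 samples treated with the DMSO solvent, 6 of the 9 samples of the series, and paired them by the replicate number of the labels. The other 3 samples received 1 nM 17β-estradiol (E2) and serve here for values side by side. FVB MOE cells, used for all 9 samples, are a single clone of secretory oviductal epithelium, the mouse counterpart of the fallopian tube lining. They were kept in a growth medium with 18.2 ng/mL E2, moved to phenol red free medium with charcoal-stripped serum for 48 h, and then treated for 24 h at 0.1% DMSO. Genes were members of the comparison when their FPKM (fragments mapped to a gene, scaled to transcript length and to the size of the library) was at least 1 in at least 3 of the 9 samples and no sample was listed at an exact 0. Of 23332 gene rows, 11094 met this rule.

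Estrogen receptor alpha, encoded by Esr1, is a transcription factor that binds E2, changes shape and recruits coactivators to its target genes. 4OHT binds the same pocket and is a selective estrogen receptor modulator: in some tissues, such as breast, it blocks the receptor, and in others, such as uterus, it switches on part of the estrogen response. Tamoxifen-type drugs are also known to bind the antiestrogen binding site, which is built from the sterol isomerase Ebp and the sterol reductase Dhcr7, so that cholesterol synthesis was examined as a separate group. Cells that lack sterol switch on the genes of this pathway through the transcription factor SREBP2.

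The summed FPKM lay between 522517 and 588640 per sample, and between 11037 and 11175 rows reached 1 FPKM. FPKM keep no read depth, so the counting precision of single genes is unknown; by the study's read table each 4OHT library had fewer reads than each DMSO library. The secretory lineage genes Pax8, Pax2, Wt1, Krt7, Krt8 and Krt18 were present in every sample, whereas Epcam, Cdh1, Muc1 and Msx1 were below 1 FPKM in every sample. The 12 secretory markers summed to 1370 to 1512 FPKM with DMSO and 1491 to 1599 with 4OHT, mostly from Krt7, Krt8 and Krt18. Of the 8 tested, 2 were higher in all 3 pairs and 2 lower (25% and 25%, against 30.5% and 15.7% of all rows). The lower ones were Pax2 and Ovgp1. Ovgp1 was at 1.99, 2.11 and 2.61 FPKM with DMSO and 1.47, 1.70 and 1.92 with 4OHT. The 9 ciliated rows summed to 21.01 to 21.39 FPKM with DMSO and 19.6 to 22.1 with 4OHT, mostly from Foxj1. The 9 leukocyte markers summed to 7.81 to 10.0 and 6.44 to 8.86, with 7 below 1 FPKM in every sample and the other 2, Csf1r and Cd68, lower with 4OHT in all 3 pairs, and the 8 endothelial markers to 1.09 to 2.53 and 1.27 to 2.33. The 12 stromal and smooth muscle markers summed to 1278 to 2106 FPKM with DMSO and 1722 to 2259 with 4OHT, almost all of it Acta2 and Tagln, with 8 below 1 FPKM and Thy1 listed at 0 in every sample. In bulk samples fewer cells of a type and less RNA per cell cannot be told apart.

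Replicate 1 stood above replicates 2 and 3 with DMSO in some genes of the estrogen response, but not in others, such as Krt19 and Fos below. Greb1, a classical estrogen receptor target chosen here after its values were seen, was at 14.3, 2.58 and 2.30 FPKM in DMSO replicates 1 to 3. With 4OHT it was at 13.2, 3.76 and 3.23 FPKM, and with E2 at 34.3, 20.4 and 14.3 FPKM. The DMSO level of replicate 1 thus lay above the 4OHT level of every replicate and equalled the E2 level of replicate 3 to 3 digits.

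Few genes changed with 4OHT. With the replicate number blocked in limma, 5 of 11094 rows rose (0.0451%) and 0 fell (0%) at an adjusted p under 0.05. At an unadjusted p under 0.05, 948 rows were higher (8.55%) and 591 lower (5.33%). The changes were small. In FPKM with 1 added, which shrinks the folds of low genes, 99.7% of the rows differed by less than 1.5-fold. Without the block, limma called 0 rows, with 277 at an unadjusted p under 0.05. The count of 5 also rested on single libraries, and the genes called without a library were mostly others: it was 10 without DMSO replicate 1, with Tmem20 alone kept of the 5, 3 without the pair of replicate 1, with 0 kept, 1 without DMSO replicate 3, which was Padi1, 1 without 4OHT replicate 2, which was Csf2, and 0 without the pair of replicate 2 or 3, DMSO replicate 2, or 4OHT replicate 1 or 3. In a fit of only the 6 DMSO and 4OHT samples it was 29, of which 13 were higher and 16 lower, and 4 of the 5 genes were among them.

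The 5 genes were Csf2, Padi2, Tmem20, Bnc1 and Serpinb9b, all protein coding. Each was higher in all 3 pairs, and with E2 each was higher again. Csf2 (chr11:54247271-54249667, GRCm38) encodes the cytokine GM-CSF, which drives the growth of myeloid cells. Its FPKM was 1.06, 0.746 and 0.349 with DMSO, 3.25, 1.61 and 1.47 with 4OHT and 8.26, 7.07 and 5.75 with E2. The 3 treatments did not overlap in this gene. The ratio of 4OHT to DMSO was 3.03-fold as a geometric mean over the pairs, from 2.16 to 4.21. On the log2(FPKM + 1) scale, which shrinks changes of low genes, the increase was 0.83 ± 0.095, with an adjusted p of 0.0362 by limma. Here and below, ± gives the standard error from the limma fit of all 9 samples, not the spread of the 3 pairs.

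Padi2 (chr4:140906344-140952586) encodes a peptidylarginine deiminase, an enzyme that turns arginine residues of proteins into citrulline. Its levels were 1.84, 1.39 and 1.41 FPKM with DMSO, 4.04, 2.84 and 2.43 with 4OHT and 8.24, 7.79 and 6.88 with E2, again without overlap. The increase was 1.98-fold and 0.68 ± 0.075 on the log2(FPKM + 1) scale (limma adjusted p = 0.0362). Its neighbour Padi1 (chr4:140812983-140845778), which encodes another enzyme of the family, was at 7.85, 4.41 and 5.56 FPKM with DMSO and 13.4, 7.15 and 7.18 with 4OHT. This was 1.53-fold higher, 0.54 on the log2 scale, and missed the threshold with a limma adjusted p of 0.0636. With E2 it reached 41.1, 22.6 and 22.7 FPKM. The remaining family members Padi3, Padi4 and Padi6 stayed below 1 FPKM in every sample and were not tested.

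Tmem20, listed as Slc35g1 in the current annotation (chr19:38395980-38405610), encodes a membrane protein. Its FPKM was 17.5, 5.61 and 3.80 with DMSO, 27.7, 9.89 and 6.32 with 4OHT and 41.5, 15.8 and 12.3 with E2. Here the groups overlapped, because replicate 1 was high in each of them, but the change was alike in the pairs, from 1.58 to 1.76-fold. The increase of 0.65 ± 0.060 on the log2 scale had the smallest p of all rows (limma adjusted p = 0.0271). Bnc1 (chr7:81966672-81992292), a zinc finger transcription factor of basal epithelial cells, was at 2.00, 1.501 and 1.10 FPKM with DMSO, 2.87, 2.63 and 1.80 with 4OHT and 7.03, 6.23 and 4.72 with E2. The highest DMSO value lay above the lowest 4OHT value, but each pair moved the same way. It increased 1.60-fold and by 0.44 ± 0.053 on the log2 scale (limma adjusted p = 0.0454). Serpinb9b (chr13:33027416-33041884) belongs to the serpin family of protease inhibitors, many of which are near-identical copies. It was at 136, 131 and 143 FPKM with DMSO, 173, 179 and 179 with 4OHT and 233, 215 and 231 with E2. The increase was 1.29-fold, 0.37 ± 0.040 on the log2 scale (limma adjusted p = 0.0362), with tight replicates and no overlap.

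**Figure D1:**
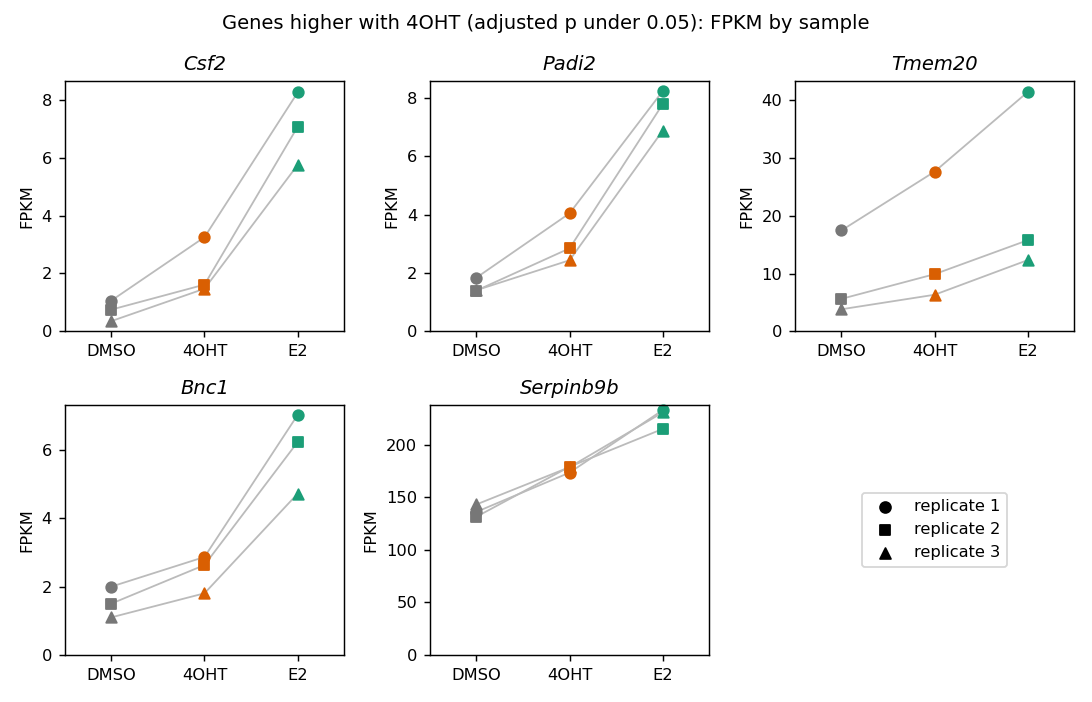
FPKM of the 5 genes that rose with 4OHT, by treatment on the x axis (DMSO, 100 nM 4OHT, 1 nM E2), with 1 point per sample and grey lines joining samples of the same replicate number. In every gene and every replicate the 4OHT value lies above the DMSO value and below the E2 value; in Tmem20 replicate 1 stands above the others in each group.

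For all 5 genes the 4OHT level was below the E2 level, and this difference was tested directly. In log2(FPKM + 1), 4OHT minus E2 was -1.40 for Csf2, -1.09 for Padi2, -0.69 for Tmem20, -1.03 for Bnc1 and -0.35 for Serpinb9b, with limma adjusted p from 3.15e-05 (Bnc1) to 8.58e-04 (Serpinb9b). Over all rows, 1243 were lower with 4OHT than with E2 (11.2%) and 1305 higher (11.8%) at an adjusted p under 0.05. The doses of the drugs differed, 100 nM against 1 nM, so the values describe these treatments and not their potency.

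The promoters of these genes, from 250 bases before to 50 after the RefSeq start on GRCm38.p6, were searched on both strands for GGTCA, the core of the estrogen response element. The full palindromic element, GGTCANNNTGACC, was in none of the 5 and in 0.07% of all 32851 promoters. GGTCA alone was in 40.5% of all promoters, and here in those of Csf2 and Bnc1, once each. Both are shown because they are the windows of called genes that hold the motif, which is in capitals. The windows are chr11:54249850-54250149 for Csf2 and chr7:81992250-81992549 for Bnc1, both on the minus strand. The RefSeq start of Csf2 lies upstream of the gene position given above, so its whole window lies before that position.
Csf2: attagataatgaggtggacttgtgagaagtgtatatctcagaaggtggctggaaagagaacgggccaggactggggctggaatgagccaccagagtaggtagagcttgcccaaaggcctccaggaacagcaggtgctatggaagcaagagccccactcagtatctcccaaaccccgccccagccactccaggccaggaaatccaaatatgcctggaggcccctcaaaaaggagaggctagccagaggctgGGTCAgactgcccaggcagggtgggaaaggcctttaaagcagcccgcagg
Bnc1: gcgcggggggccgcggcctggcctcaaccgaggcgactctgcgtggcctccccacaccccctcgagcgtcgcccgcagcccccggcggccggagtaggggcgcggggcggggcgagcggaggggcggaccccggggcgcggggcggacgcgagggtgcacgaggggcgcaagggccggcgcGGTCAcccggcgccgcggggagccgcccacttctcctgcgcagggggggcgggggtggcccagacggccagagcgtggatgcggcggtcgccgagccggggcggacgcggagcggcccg
The windows of Padi2, Serpinb9b and Tmem20 did not hold these letters.

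Beyond the called genes, the rule asked which rows moved the same way in all 3 pairs. With 4OHT, 3389 rows were higher in all 3 pairs (30.5%) and 1738 lower (15.7%), so that 66.1% of the rows that moved the same way were higher. This split depended on the scaling: 44.6% were higher when samples were set to equal upper quartiles (2016 higher, 2509 lower), and 55.2% after correction for transcript length and GC content (2451 higher, 1993 lower). The median change over all rows was 0.025 on the log2 scale.

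Ranked by the smallest of the 3 pair changes, the highest genes beside Tmem20, Csf2, Padi2, Bnc1, Padi1 and Serpinb9b were Lxn, AA467197, Rtn2 and Naaa. Lxn encodes latexin, an inhibitor of carboxypeptidases, and was at 95.6, 40.5 and 49.7 FPKM with DMSO, 136, 82.6 and 77.0 with 4OHT and 189, 119 and 119 with E2 (0.71 on the log2 scale, limma adjusted p = 0.0634). Naaa, an acid amidase of the lysosome, was at 13.3, 8.88 and 8.42 FPKM with DMSO and 16.9, 13.2 and 11.6 with 4OHT (0.42, adjusted p = 0.0546 by limma). Rtn2, a reticulon of the endoplasmic reticulum, went from 1.49, 1.54 and 1.49 FPKM to 3.20, 2.47 and 2.17, and here the E2 samples, at 2.33, 1.96 and 2.01, were not above those with 4OHT. AA467197 was uneven, at 0.168, 0.392 and 0.538 FPKM with DMSO and 0.543, 16.2 and 5.96 with 4OHT, and missed the threshold (2.07 on the log2 scale, limma adjusted p = 0.248). None of these 4 passed the test across all rows, while Lxn and Naaa passed it in the fit of the 6 DMSO and 4OHT samples. The change of AA467197 was 1.29 without replicate 2.

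Small RNA genes made up 6 of the 10 lowest rows by the same ranking. The snoRNA Snora78 was at 28.8, 43.1 and 35.7 FPKM with DMSO, 19.1, 16.8 and 17.0 with 4OHT and 45.9, 31.2 and 43.1 with E2 (-0.97 on the log2 scale, limma adjusted p = 0.112). Snora64, which lies next to it on chromosome 17, was at 95.03, 117 and 99.7 FPKM with DMSO and 61.2, 48.6 and 67.1 with 4OHT (-0.81, limma adjusted p = 0.166). Snord47 was at 481, 562 and 927 FPKM with DMSO and 42.5, 393 and 402 with 4OHT; its change of -1.73 on the log2 scale became -0.86 without replicate 1. The others of this kind were Mir34a, Mir1896 and Mir3098, whose symbol stands in 2 rows. Mir34a was at 5.97, 7.02 and 8.16 FPKM with DMSO and 3.81, 4.94 and 5.34 with 4OHT, without overlap. Snora78, Mir34a and 1810024B03Rik passed the threshold in the fit of the 6 DMSO and 4OHT samples. These rows of small RNAs are 77 to 134 bases long in the annotation, the libraries were selected for poly(A) RNA, and no mature small RNA was measured. The remaining rows were Eid3, 1 of 3 rows of Mllt10, Adamts16 and 1810024B03Rik, all below 6 FPKM with DMSO, and their limma adjusted p lay between 0.105 and 0.303. Adamts16, a secreted metalloproteinase, was at 2.52, 0.852 and 1.58 FPKM with DMSO, 1.06, 0.376 and 0.860 with 4OHT and 0.785, 0.486 and 0.994 with E2.

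Transcript length moved with the direction of change. In rows whose longest transcript was over 300 and up to 1000 bases, the median change in pairs 1 to 3 was 0.074, 0.081 and 0.038 on the log2 scale. The medians were lower in each longer bin, down to -0.104, -0.073 and -0.045 above 8000 bases, where 56.9% of 557 rows were lower in all 3 pairs. In the 73 rows of up to 300 bases the medians were -0.115, -0.229 and -0.015. With E2 the pairs differed among themselves: above 8000 bases their medians were 0.017, 0.099 and -0.054. The part of transcript length in the groups below was not tested, and their counts after the correction are given beside the uncorrected ones. For those corrected counts the shares over all rows were 22.7% higher and 18.5% lower in all 3 pairs, in place of 30.5% and 15.7%.

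**Figure D2:**
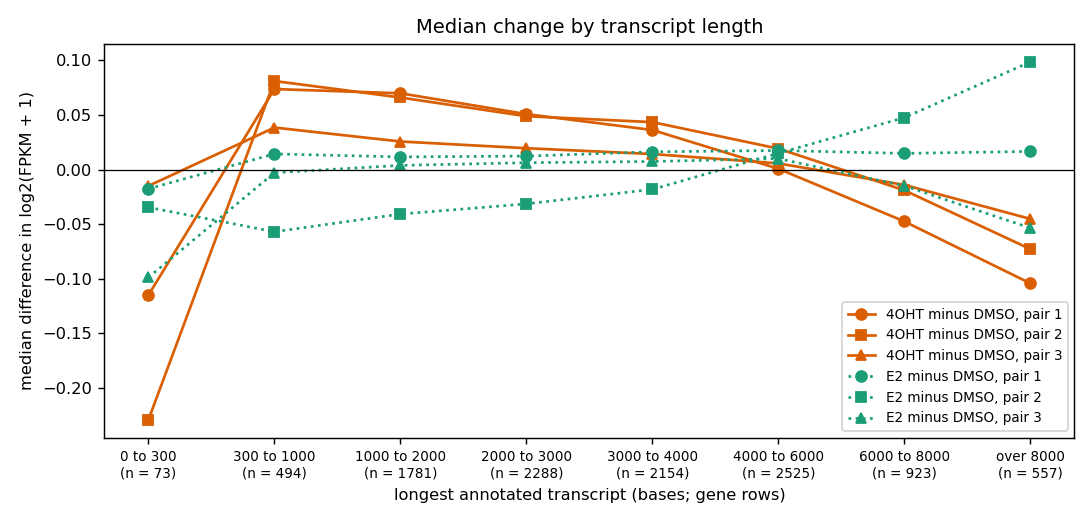
Median difference in log2(FPKM + 1) against DMSO (y axis) in 8 bins of the longest annotated transcript (x axis, bases, with the number of rows), as lines for 3 replicate pairs of 4OHT (orange, solid) and E2 (green, dotted). In the 4OHT pairs the median is above 0 in short transcripts over 300 bases and below 0 above 6000 bases.

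Genes known for their response to estrogen held Csf2 and Padi2 among their members. Of 25 tested members of the list, 12 were higher in all 3 pairs and 2 lower (48% and 8%, against 30.5% and 15.7% of all rows). At an unadjusted p under 0.05, 9 were higher and 0 lower (8.55% and 5.33% of all rows), and the calls were Csf2 and Padi2. Both, and other members, entered the list with earlier results of these samples known, so the count is not independent evidence of direction. After the correction for length and GC content 14 were higher in all 3 pairs and 2 lower (22.7% and 18.5% of all rows). The median change was 0.086 on the log2 scale with 4OHT and 0.173 with E2. In the direct test 12 members were lower and 7 higher with 4OHT than with E2 (11.2% and 11.8% of all rows). Fos, an immediate early transcription factor, was at 3.48, 2.29 and 3.78 FPKM with DMSO, 4.46, 3.60 and 5.13 with 4OHT and 9.90, 7.11 and 10.5 with E2 (4OHT 0.38 on the log2 scale, limma adjusted p = 0.0636). Krt19, an epithelial keratin, was 1.16-fold higher with 4OHT, from 112, 155 and 167 to 132, 184 and 186 FPKM.

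The receptor's classical targets differed in how replicate 1 behaved. Pgr, the progesterone receptor, was at 9.58, 1.36 and 1.16 FPKM with DMSO, 9.67, 3.67 and 2.39 with 4OHT and 38.1, 21.1 and 15.9 with E2. Its 4OHT level was near that of DMSO in replicate 1 and above it in replicates 2 and 3 (0.55 ± 0.21 on the log2 scale, unadjusted p = 0.0271 and adjusted p = 0.319 by limma). It was among the 10 genes called without DMSO replicate 1. Sgk1, a serum- and glucocorticoid-regulated kinase that reached 122, 122 and 112 FPKM with E2, was at 52.4, 33.1 and 36.8 with DMSO and 36.2, 38.6 and 36.2 with 4OHT. Bcas1 stood at 1.11, 0.390 and 0.342 FPKM with DMSO, 0.942, 0.435 and 0.286 with 4OHT and 5.16, 3.12 and 2.56 with E2. For Greb1, Sgk1 and Bcas1 the 4OHT changes of 0.22, -0.11 and -0.045 on the log2 scale lay within the spread between the pairs. Without replicate 1 they were 0.38, 0.095 and -0.0076, so that the sign of Sgk1 turned, and that of Pgr was 0.82. The 4OHT levels of Greb1 and Sgk1 were lower than with E2 (limma adjusted p = 8.17e-04 and 7.77e-05). That of Bcas1 was lower too (limma adjusted p = 1.61e-05), but apart from DMSO replicate 1 Bcas1 reached 1 FPKM only with E2. It entered the tested rows through its E2 values, so this p-value is not evidence of a difference. Pgr, Greb1, Sgk1 and Bcas1 were singled out after their values were seen.

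Within the estrogen response list, some members stood higher with 4OHT than with E2. Cited2, Wnt4 and Slc7a5 were higher with 4OHT in all 3 pairs, by 0.11, 0.13 and 0.19 on the log2 scale, and their E2 changes were -0.16, -0.094 and -0.19. Wnt4, a secreted Wnt ligand of the female tract, was at 55.3, 42.4 and 51.5 FPKM with DMSO, 62.1, 48.3 and 53.1 with 4OHT and 49.7, 42.9 and 46.3 with E2. None of the 3 passed the test against DMSO, and they too were picked after their values were seen.

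Esr1 itself (chr10:4611593-5005614) was at 12.4, 5.98 and 5.995 FPKM with DMSO, 11.2, 5.25 and 5.397 with 4OHT and 16.3, 9.32 and 8.31 with E2. It was lower with 4OHT in all 3 pairs by about the same step, -0.14 ± 0.051 on the log2 scale (limma unadjusted p = 0.0235, adjusted p = 0.318), and lower than with E2 (adjusted p = 2.01e-04 by limma). Esr2, the beta receptor, was below 1 FPKM in every sample. Of 16 tested receptors and coregulators, 2 were higher in all 3 pairs and 9 lower (12.5% and 56.2%, against 30.5% and 15.7% of all rows), among them the coactivators Ncoa1, Ncoa2 and Ncoa3, the corepressor Ncor1 and the acetyltransferase Crebbp (-0.20, limma unadjusted p = 0.00959). Ncoa1, Ncoa2, Ncoa3 and Ncor1 were named after their values were seen. None of the 16 passed the adjusted threshold, and after the correction for length and GC content 1 was higher and 5 lower. The median transcript of this list was 7430 bases long, and of all rows over 6000 and up to 8000 bases 33.7% were lower in all 3 pairs.

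Enzymes that act on steroids split in direction. Of 12 tested members, 6 were higher in all 3 pairs and 2 lower (50% and 16.7%, against 30.5% and 15.7% of all rows). Unadjusted p fell under 0.05 for 4 higher members and 1 lower (8.55% and 5.33% of all rows). None passed the adjusted threshold. After the correction for length and GC content 4 were higher and 3 lower in all 3 pairs, and 2 and 1 had an unadjusted p under 0.05. Over all 10795 corrected rows, 1282 had an unadjusted p under 0.05 in either direction. Hsd17b11, a 17β-hydroxysteroid dehydrogenase of lipid droplets, was at 26.4, 13.8 and 14.1 FPKM with DMSO, 42.9, 17.5 and 16.1 with 4OHT and 75.4, 41.3 and 39.8 with E2 (0.40 on the log2 scale, limma adjusted p = 0.196, and 0.25 without replicate 1). Dhrs9, a retinol and steroid dehydrogenase, went the other way, at 3.78, 0.878 and 0.464 FPKM with DMSO, 1.07, 0.754 and 0.336 with 4OHT and 21.5, 14.0 and 8.35 with E2. The change of Dhrs9 was -0.48 on the log2 scale and came mostly from replicate 1, since it was -0.12 without that pair. Outside the E2 samples Dhrs9 reached 1 FPKM in replicate 1 alone, so it entered the tested rows through its high E2 values.

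None of the tested sterol synthesis enzymes passed the adjusted threshold with 4OHT. Of 20 tested, 8 were higher in all 3 pairs and 1 lower (40% and 5%, against 30.5% and 15.7% of all rows), and 3 and 1 had an unadjusted p under 0.05 (8.55% and 5.33% of all rows). The median change was 0.074 on the log2 scale, against 0.257 with E2, where 18 were higher in all 3 pairs. The share of all rows higher in all 3 pairs of E2 was not counted. Medians over the list in pairs 1 to 3 of 4OHT were -0.010, 0.091 and 0.107, so that replicate 1 did not share the shift. After the correction for length and GC content 6 were higher and 3 lower (22.7% and 18.5% of all rows). The 4OHT level was lower than the E2 level for 14 of the 20 at an adjusted p under 0.05 and higher for 0 (11.2% and 11.8% of all rows).

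Values of single enzymes follow the order of the pathway. Hmgcs1, the synthase of an early step, was at 81.9, 46.0 and 49.4 FPKM with DMSO and 78.3, 46.8 and 53.7 with 4OHT. It was lower in pair 1 and higher in pairs 2 and 3, with a 4OHT change of 0.026 on the log2 scale, smaller than its standard error of 0.041, and of 0.072 without replicate 1. In the middle of the pathway Fdps, which makes farnesyl diphosphate, was 1.06-fold higher in the mean, from 129, 97.7 and 103 to 134, 105 and 109 FPKM. The sterol isomerase Ebp was at 37.4, 33.1 and 34.6 FPKM with DMSO, 36.3, 35.9 and 37.5 with 4OHT and 39.5, 32.1 and 38.1 with E2, and its groups overlapped. Dhcr7, which performs a last reduction to cholesterol, was at 32.8, 28.4 and 30.7 FPKM with DMSO and 35.5, 30.8 and 33.5 with 4OHT. That step of 0.12 ± 0.039 on the log2 scale was alike in all 3 pairs and missed the adjusted threshold (limma unadjusted p = 0.017, adjusted p = 0.303).

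**Figure D3:**
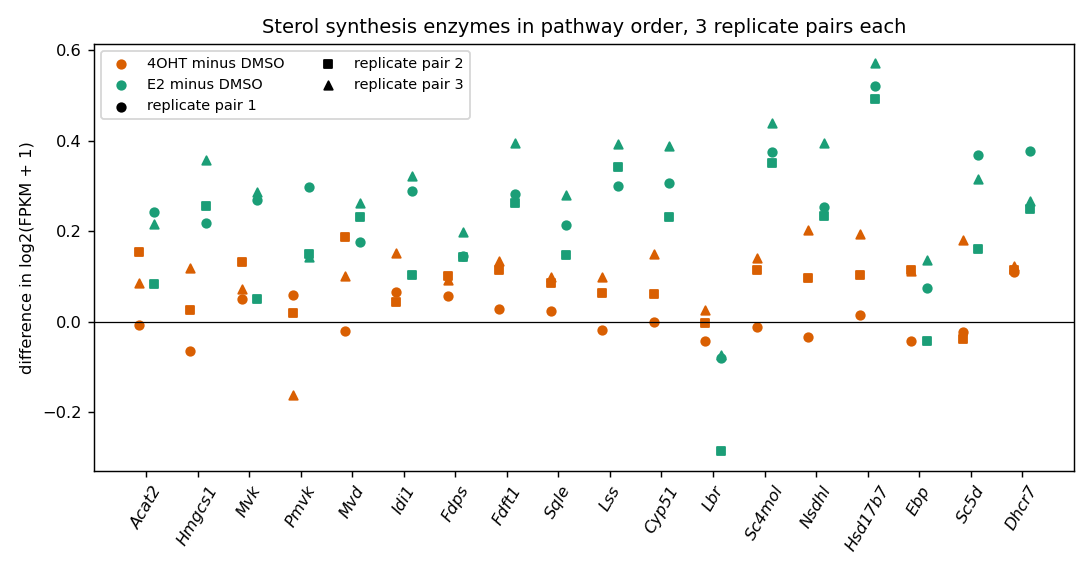
Difference in log2(FPKM + 1) against DMSO (y axis) for 18 sterol synthesis enzymes in pathway order (x axis), with 1 point per replicate pair for 4OHT (orange) and E2 (green). Most 4OHT points lie near 0 and under the E2 points; for Dhcr7 the 4OHT points of all 3 pairs lie close together above 0.

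The regulators of sterol balance were near the DMSO level too. Of 16 tested genes of sterol sensing and uptake, 4 were higher in all 3 pairs and 1 lower (4 and 2 after the correction). These were shares of 25% and 6.25%, against 30.5% and 15.7% of all rows. None of the 16 had an unadjusted p under 0.05. Insig1, which holds back SREBP2 when sterol is plentiful and is itself its target, was at 33.6, 21.1 and 21.9 FPKM with DMSO, 35.7, 22.2 and 23.6 with 4OHT and 43.9, 25.05 and 28.2 with E2. Of 9 tested LXR targets and efflux genes, 1 was higher and 2 were lower (1 and 0 after the correction). Their shares were 11.1% and 22.2%, against 30.5% and 15.7% of all rows. In fatty acid synthesis 5 of 14 were higher in all 3 pairs and 1 lower (35.7% and 7.14%, against 30.5% and 15.7% of all rows). The latter was Fasn, the fatty acid synthase, at 44.7, 43.6 and 39.7 FPKM with DMSO and 38.7, 40.9 and 33.8 with 4OHT (-0.17 on the log2 scale, limma unadjusted p = 0.0238). After the correction 6 members of this list were higher in all 3 pairs and 0 lower. Mid1ip1, which promotes the polymerization of acetyl-CoA carboxylase, was at 249, 119 and 133 FPKM with DMSO, 272, 138 and 142 with 4OHT and 442, 230 and 236 with E2.

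Contractile genes and targets of the transcription factor SRF held the largest share of members higher in all 3 pairs among the gene groups with at least 5 tested rows, 10 of 15 (66.7%, against 30.5% of all rows), with 2 lower. At an unadjusted p under 0.05, 8 were higher and 1 lower (8.55% and 5.33% of all rows), and none passed the adjusted threshold. After the correction 10 were higher in all 3 pairs and 3 lower. Acta2, smooth muscle actin, was at 932, 1042 and 1414 FPKM with DMSO, 1245, 1272 and 1517 with 4OHT and 1290, 1301 and 1724 with E2. Its partner Tagln was at 338, 478 and 685 FPKM with DMSO and 469, 586 and 735 with 4OHT. Ctgf, a matricellular protein, was 1.21-fold higher in the mean with 4OHT. Their changes of 0.27, 0.29 and 0.27 on the log2 scale had limma adjusted p of 0.186, 0.199 and 0.196. Mylk, the myosin light chain kinase, was the opposite case, at 3.32, 1.99 and 3.45 FPKM with DMSO, 2.15, 1.27 and 2.501 with 4OHT and 2.07, 1.58 and 2.41 with E2. It was lower in all 3 pairs of each treatment (4OHT -0.40 ± 0.067, limma adjusted p = 0.111). Acta2 and Tagln are also markers of stroma and smooth muscle, whose summed level moved with them as given above; the part of such cells was not tested.

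Of 23 lysosomal genes, 11 were higher in all 3 pairs (47.8%, against 30.5% of all rows), 0 were lower (against 15.7%) and 12 were neither, and none passed the adjusted threshold. Unadjusted p fell under 0.05 for 7 higher members and 0 lower (8.55% and 5.33% of all rows). After the correction 8 were higher in all 3 pairs and 0 lower (22.7% and 18.5% of all rows). Neu1, a sialidase, was at 11.6, 9.17 and 10.9 FPKM with DMSO, 13.0, 11.6 and 12.6 with 4OHT and 16.2, 13.8 and 17.4 with E2. Ctsb, the protease cathepsin B, was at 83.8, 58.2 and 59.9 FPKM with DMSO, 88.3, 66.8 and 65.3 with 4OHT and 118, 83.6 and 83.6 with E2. Both increments were small, 0.22 and 0.13 on the log2 scale, with limma adjusted p of 0.196 and 0.263.

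Of 19 immediate early genes, 8 were higher in all 3 pairs and 1 lower (42.1% and 5.26%, against 30.5% and 15.7% of all rows). After the correction 7 were higher and 1 lower. Unadjusted p fell under 0.05 for 5 higher and 0 lower (8.55% and 5.33% of all rows). Dusp2, a phosphatase of MAP kinases, was at 15.6, 12.6 and 14.5 FPKM with DMSO, 17.8, 15.1 and 16.3 with 4OHT and 26.5, 26.3 and 27.8 with E2. Klf4 and Ier3 were higher by 0.18 and 0.13 on the log2 scale with 4OHT and by 0.49 and 0.71 with E2. No member passed the adjusted threshold against DMSO.

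Stress programmes showed no call. Of 20 genes of the endoplasmic reticulum and integrated stress response, 7 were higher in all 3 pairs and 2 lower (35% and 10%, near the shares of all rows), and after the correction 5 and 6. Asns, the asparagine synthetase induced by ATF4, was at 51.0, 86.5 and 85.5 FPKM with DMSO, 57.1, 98.6 and 93.3 with 4OHT and 50.6, 78.8 and 88.7 with E2. Ern1, the sensor IRE1, went down with 4OHT and up with E2 in all 3 pairs, at 9.27, 6.91 and 6.40 FPKM with DMSO, 6.25, 6.40 and 5.69 with 4OHT and 17.0, 13.0 and 11.4 with E2. Its 4OHT change of -0.25 on the log2 scale missed the adjusted threshold (limma adjusted p = 0.303) and was -0.12 without replicate 1. Among 19 NRF2 targets 7 were higher in all 3 pairs and 1 was lower (6 and 2 after the correction). These were shares of 36.8% and 5.26%, against 30.5% and 15.7% of all rows. The lower gene was G6pdx, which feeds the pentose phosphate pathway, at -0.17 on the log2 scale. None of these genes passed the adjusted threshold.

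Genes of S and M phase differed between 4OHT and E2 more than between 4OHT and DMSO. Of 33 tested rows, 12 were higher with 4OHT in all 3 pairs and 3 lower, shares of 36.4% and 9.09% beside 30.5% and 15.7% of all rows. After the correction the counts were 5 and 3, beside 22.7% and 18.5% of all rows. At an unadjusted p under 0.05, 0 were higher and 2 lower (8.55% and 5.33% of all rows). The median change was 0.043 on the log2 scale with 4OHT and -0.178 with E2, and that of 4OHT turned to -0.028 without DMSO replicate 1. With E2, 0 rows were higher in all 3 pairs and 14 lower, and the E2 shares over all rows were not counted. In the direct test, 20 of the 33 were higher with 4OHT than with E2 and 0 lower (11.8% and 11.2% of all rows). Pcna, the clamp of DNA replication, was at 124, 164 and 139 FPKM with DMSO, 141, 167 and 144 with 4OHT and 127, 125 and 124 with E2. Mki67, the proliferation marker Ki-67 with a long transcript, was at 15.9, 17.3 and 14.7 FPKM with DMSO, 13.4, 13.3 and 13.1 with 4OHT and 16.3, 15.9 and 11.2 with E2 (4OHT -0.25, limma adjusted p = 0.304).

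**Figure D4:**
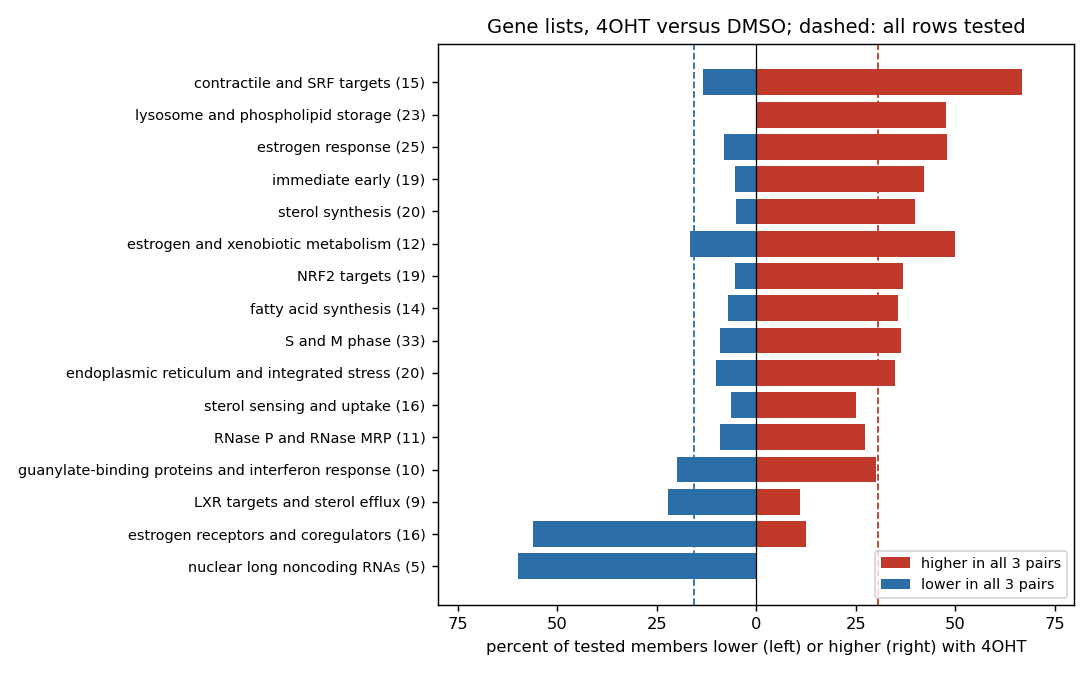
Share of tested members (x axis, percent) that were higher (red, right) or lower (blue, left) with 4OHT than with DMSO in all 3 pairs, for the 16 lists of gene groups (cell type markers left out) with at least 5 tested rows (number of rows in parentheses). Dashed lines mark the shares over all rows tested, 30.5% higher and 15.7% lower; contractile genes lie farthest to the right of the first and nuclear long noncoding RNAs, with 3 of 5, farthest to the left of the second.

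Noncoding RNAs of the nucleus had the largest share of lower members among the same lists, with 0 of 5 higher in all 3 pairs and 3 lower (0 and 3 after the correction). These were shares of 0% and 60%, against 30.5% and 15.7% of all rows. The median transcript of this list was 6983 bases long, and of all rows over 6000 and up to 8000 bases 33.7% were lower in all 3 pairs. Neat1, the scaffold of paraspeckles, was at 158, 132 and 126 FPKM with DMSO, 115, 72.0 and 112 with 4OHT and 134, 156 and 130 with E2 (-0.49 ± 0.16 on the log2 scale, limma unadjusted p = 0.0117, adjusted p = 0.298, and -0.31 without replicate 2). Malat1, its neighbour, was at 38.5, 25.9 and 24.1 FPKM with DMSO and 28.9, 18.4 and 24.6 with 4OHT, lower in pairs 1 and 2 and not in pair 3.

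The RNA subunits of RNase P and RNase MRP, which process tRNA and ribosomal RNA, were uneven. Rmrp was at 17.2, 6.20 and 5.36 FPKM with DMSO and 10.2, 9.86 and 58.9 with 4OHT, and Rpph1 at 8.69, 6.66 and 6.88 and 6.44, 6.38 and 32.5. Both were high in 4OHT replicate 3 alone, and without the pair of replicate 3 their changes of 1.04 and 0.55 on the log2 scale became -0.052 and -0.22. Of the 11 tested genes of these complexes, 3 were higher in all 3 pairs and 1 lower (2 and 1 after the correction). These were shares of 27.3% and 9.09%, against 30.5% and 15.7% of all rows. None of the 11 passed the adjusted threshold. The protein subunit Rpp14, at 13.4, 16.5 and 16.3 FPKM with DMSO and 15.2, 17.9 and 18.4 with 4OHT, was higher by 0.15 on the log2 scale.

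The interferon list showed no common direction, with 3 of 10 higher in all 3 pairs and 2 lower, and 2 and 3 after the correction. Before the correction the shares were 30% and 20%, against 30.5% and 15.7% of all rows. B2m, the light chain of MHC class I, was at 474, 413 and 450 FPKM with DMSO and 504, 477 and 495 with 4OHT (0.14 on the log2 scale, limma adjusted p = 0.25). Of the guanylate-binding proteins of the list, Gbp2 alone was high enough to be tested. Gbp9, named after its values were seen, was below 1 FPKM in every DMSO and 4OHT sample, at 0.579, 0.335 and 0.364 with DMSO, 0.0888, 0.172 and 0.145 with 4OHT and 1.88, 1.28 and 0.835 with E2.

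Set beside the E2 samples, which were compared with the same DMSO samples, the rows that moved the same way in all 3 pairs of each treatment fell into 4 classes. Higher with both were 1329 rows (12.0%), lower with both 627 (5.65%), higher with 4OHT and lower with E2 572 (5.16%), and lower with 4OHT and higher with E2 247 (2.23%). Because the DMSO samples are shared, an error in them moves both treatments alike, and the sizes of these classes are a description. With an unadjusted p under 0.05 in both comparisons the classes held 436, 159, 49 and 36 rows, of which 154 and 23 in the first 2 classes differed between 4OHT and E2 at an adjusted p under 0.05; in the last 2 the choice of members fixes that difference.

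Among the genes lower with 4OHT and higher with E2, Tgfb3 came first when ranked by the smallest of the pair changes. It encodes a growth factor of the TGF-beta family (chr12:86056745-86079041) and was at 27.2, 19.5 and 32.2 FPKM with DMSO, 18.3, 15.1 and 25.9 with 4OHT and 43.7, 35.7 and 47.2 with E2. Each 4OHT sample lay below its own DMSO sample, at 0.673 to 0.802-fold, and each E2 sample above all DMSO samples. The 4OHT change of -0.40 ± 0.073 on the log2 scale missed the threshold in the fit of all 9 samples (limma adjusted p = 0.137) and passed it in that of the 6 DMSO and 4OHT samples (limma adjusted p = 0.0467). Mnda, listed as Ifi211 in the annotation and part of a family of near-identical interferon-inducible genes, was at 9.32, 14.4 and 10.9 FPKM with DMSO, 6.19, 9.72 and 8.71 with 4OHT and 18.7, 23.0 and 19.3 with E2 (4OHT -0.45, limma adjusted p = 0.105). It too passed the threshold in the fit of the 6 samples.

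Wnk2, a kinase that controls ion transport, was at 4.15, 0.542 and 0.356 FPKM with DMSO, 1.29, 0.325 and 0.179 with 4OHT and 12.2, 5.53 and 3.04 with E2. Its change of -0.53 on the log2 scale (limma adjusted p = 0.303) was -0.21 without replicate 1, where the DMSO level was highest. Outside the E2 samples Wnk2 reached 1 FPKM in replicate 1 alone. It entered the tested rows through its high E2 values, so its place in this class is not evidence. Cxcr7, named Ackr3 in the annotation, is a scavenging receptor of the chemokine CXCL12 and was at 11.6, 3.32 and 3.70 FPKM with DMSO, 7.93, 2.82 and 2.85 with 4OHT and 14.6, 7.33 and 6.64 with E2. E330013P04Rik, Ccdc82, Mtus1 and Mgll followed, with 4OHT changes from -0.30 to -0.19 on the log2 scale and limma adjusted p from 0.263 to 0.333; without replicate 1 E330013P04Rik was at -0.20 and Mgll at -0.16. Mgll, a monoacylglycerol lipase, was at 14.1, 5.9965 and 7.03 FPKM with DMSO, 10.1, 5.35 and 6.13 with 4OHT and 15.8, 9.84 and 11.045 with E2.

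**Figure D5:**
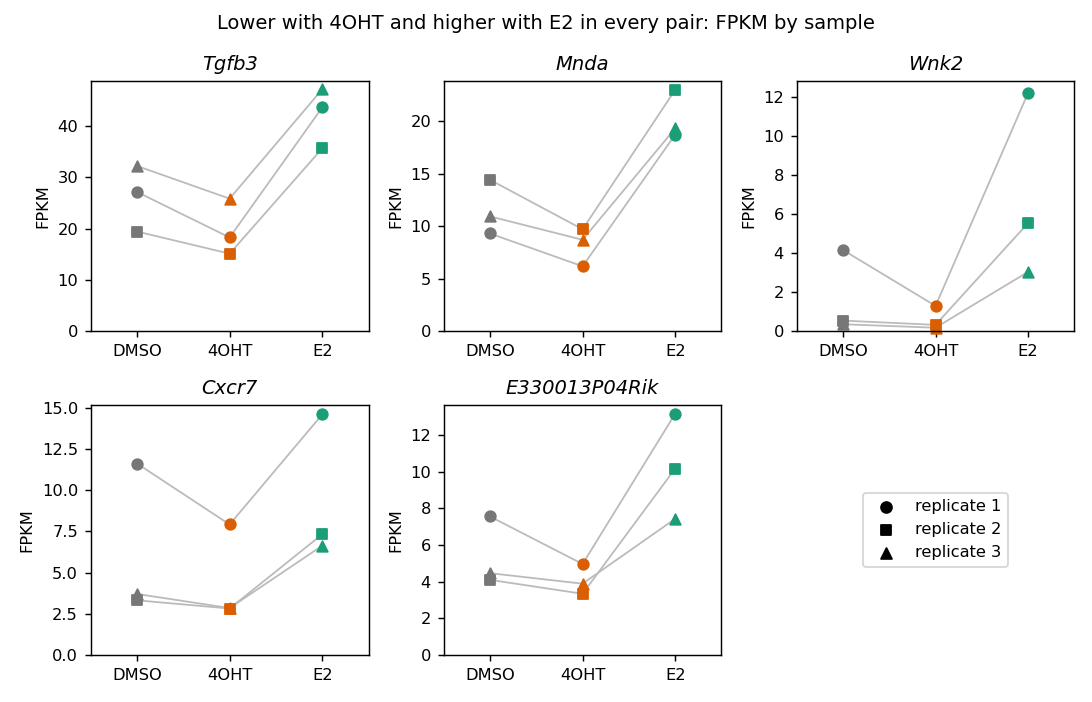
FPKM of the first 5 genes that were lower with 4OHT and higher with E2 in all 3 pairs, by treatment on the x axis, with 1 point per sample and lines joining samples of the same replicate number. In each line the 4OHT point is the lowest; for Wnk2, Cxcr7 and E330013P04Rik the DMSO sample of replicate 1 stands above replicates 2 and 3.

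In the reverse class, higher with 4OHT and lower with E2, the changes were smaller. Hoxb2, a homeobox factor, was at 18.3, 20.2 and 21.6 FPKM with DMSO, 21.2, 23.2 and 24.2 with 4OHT and 16.3, 18.4 and 20.1 with E2 (4OHT 0.18 ± 0.036 on the log2 scale, limma adjusted p = 0.166). Lhpp, a phosphatase, stepped from 3.85, 4.52 and 3.92 FPKM to 4.71, 5.38 and 4.56, and was at 3.60, 3.57 and 3.55 with E2. A pair of mitochondrial enzymes, Aldh1l2 of folate metabolism and Pck2 of phosphoenolpyruvate synthesis, belonged to this class, at 0.17 and 0.15 on the log2 scale with 4OHT and -0.25 and -0.11 with E2. Etv4, an ETS transcription factor, was at 17.0, 30.6 and 21.6 FPKM with DMSO, 22.1, 33.6 and 24.0 with 4OHT and 15.2, 25.5 and 18.6 with E2, and its 4OHT change of 0.21 on the log2 scale was 0.14 without replicate 1. Stra6, the cell surface receptor for retinol-binding protein, was at 21.1, 17.4 and 28.9 FPKM with DMSO, 23.1, 19.9 and 32.9 with 4OHT and 14.7, 15.4 and 23.6 with E2. Cisd1, a mitochondrial iron-sulfur protein, and the row of Mir1199 completed the 8 named genes. None of them passed the adjusted threshold against DMSO.

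Genes lower with both treatments included Adamts16, Mylk, Mir34a, Mir1896, Eid3, 1810024B03Rik and Cd209c, and none of them passed the adjusted threshold against DMSO.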

How the data were processed

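Poly(A) RNA of 9 FVB MOE samples was sequenced as stranded 50-base single-end reads. After adapter trimming, the authors mapped reads with TopHat (2.0.8b) to mm10, and the deposited FPKM per gene came from Cufflinks and Cuffdiff (2.1.1) with a UCSC annotation. Whether a further scaling between libraries was applied to these FPKM is not given in the sources used here. Conditions and replicate numbers came from the labels, which do not state separate cultures, so p-values measure the spread between these samples. Repeated symbols (362) and joined names (293) were kept as the files list them.

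Rows with FPKM of at least 1 in 3 or more samples and no exact 0 (11094; 245 rows were left out for a 0) were transformed to log2(FPKM + 1). All 9 samples entered a single limma fit (3.58.1, R 4.3.3) with a variance trend and the replicate number as a block, and p-values were adjusted by Benjamini-Hochberg over all rows. Counts were not used, so no count test was run. The block was used because same-numbered samples deviated together from their group means over all rows (correlation 0.828, 0.727 and 0.669 for DMSO and 4OHT in replicates 1 to 3, and 0.523 to 0.828 over all groups). The fit was run on simulated data, whose noise was set below the observed spread and whose planted changes were larger than most seen here. That run cannot show how well small changes are found. GENCODE on GRCm38 gave positions, lengths and GC content (a length for 97.3% of the rows), and promoters came from RefSeq (searched in Python 3.11.15).

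The lists, rules and tests were chosen with earlier results of these data known. The rule named genes with an adjusted p under 0.05; up to 10 genes in each direction that moved the same way in all 3 pairs with an unadjusted p under 0.05, by their smallest pair change; up to 8 in each class beside E2; all sterol synthesis, peptidylarginine deiminase and RNase P members; and up to 4 by p of each other list. Some genes that this rule names are not reported here, though the counts of lists include them. Other genes are said to be named after their values were seen. Alternatives were the fit without the block, only the 6 samples, other pseudocounts, filters and scalings, no trend, each sample or pair left out and, added after seeing the data, a correction for length and GC content.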

Additional observations from a re-analysis of the deposited data

Results flagged for a closer look

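The filter removed 245 rows with an exact 0 in some sample. Of these, 50 held no 0 in the DMSO and 4OHT samples, and in 2 of them every 4OHT sample lay above every DMSO sample, and in 4, Ino80d, Snord2, Gon4l and Snora30, below. H2-T10, an MHC class Ib gene with near-identical copies that share reads, was at 248, 166 and 148 FPKM with DMSO and 447, 340 and 274 with 4OHT, a ratio of means of 1.89, and with E2 at 372 and 335 and listed at 0 in replicate 3. Gmfb, which encodes glia maturation factor beta, was at 69.8, 68.3 and 70.8 FPKM with DMSO and 72.7, 72.1 and 73.9 with 4OHT, a ratio of 1.05, and was listed at 0 in E2 replicate 3. All 6 stand outside the tested rows and were not tested. A listed 0 in a gene at such levels can be a failed estimate.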

How the results depend on the processing

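Against 5 genes called, all higher, limma called 0 without the replicate block (277 at an unadjusted p under 0.05), 29 in the 6 DMSO and 4OHT samples (13 higher, 16 lower), 8 with a pseudocount of 0.1 (8 higher), 3 with nothing added (3 higher), 0 without the filter on low values or with exact zeros kept, and 2, all higher, with equal upper quartiles, equal medians, no trend, or the length and GC correction with the block. Leaving out a sample or pair gave 0 to 10 calls, 0 to 8 higher and 0 to 2 lower; the cause was not tested. Of the 5 genes, Tmem20 passed in 9 of 20 alternatives, Serpinb9b in 7, Csf2 and Padi2 in 4 each and Bnc1 in 2 of 19, and the highest adjusted p of each was 1. Without the block, 8 named genes differed between 4OHT and E2, against 67 with it. With equal upper quartiles 2016 rows were higher in all 3 pairs, 730 higher with both and 1002 lower with both treatments; with FPKM of at least 5 the last was 416.

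Signs turned in genes near 0: with equal upper quartiles Hmgcs1 (-0.0047) and Rpp38 (-0.011), and with the length and GC correction and block Hmgcs1 (-0.0052), Rpp30 (-0.00091) and Rpp38 (-0.040). Leaving out samples gave log2 changes from -0.019 to 0.072 for Hmgcs1, -0.043 to 0.027 for Lbr, -0.075 to 0.039 for Pmvk, -0.030 to 0.093 for Sc5d, -0.0035 to 0.083 for Soat1, -0.11 to 0.016 for Pop5, -0.0082 to 0.11 for Pop7, -0.069 to 0.17 for Rpp21, -0.016 to 0.094 for Rpp30, -0.025 to 0.047 for Rpp38, -0.052 to 1.91 for Rmrp and -0.22 to 1.11 for Rpph1. Over 119 genes and 20 alternatives, 2253 of 2367 values kept direction and side of the threshold, 73 lost it, 12 gained it and 29 turned sign. All 73 belonged to the 5 called genes, because the others were not past the threshold and could not lose it. FPKM hold no counts, so the counting error of low genes is unknown.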
